A study of Mus musculus with 6 samples.

Results

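The 32 genes described here are nuclear genes whose proteins form the oxidative phosphorylation machinery of mitochondria. They were taken by name from the role of their products. No measured value entered the rule, although earlier results of these data were known when it was made. The list holds 15 genes of complex I, 4 of complex II, 4 of complex III, 6 of complex IV, 2 of complex V, and Cycs, which encodes cytochrome c. The table of read counts holds 54532 genes, and all 32 members were found in it. All 32 also passed the filter on low counts, which left 12491 genes for testing. RNA sequencing was done on 6 libraries of RAW264.7, a macrophage-like mouse line transformed with Abelson leukaemia virus. The 3 control libraries have the genotype WT and no treatment tag. The other 3 are labelled as an ERMAP knockdown by shRNA (short hairpin RNA), where ERMAP is a butyrophilin-like membrane protein named for its place on red blood cells. The treatment text names an ERMAP shRNA lentivirus for every sample, controls included, and no non-targeting virus is described. All groups thus share the line and the culture medium, and whether the controls carried a virus cannot be told from the labels. Nothing says that the replicates came from separate cultures, and the p-values may therefore reflect technical spread only.

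Complexes I to IV pass electrons from NADH and succinate to oxygen and, except for complex II, pump protons across the inner mitochondrial membrane; complex V uses the proton gradient to make ATP. Ubiquinone carries electrons to complex III and cytochrome c carries them on to complex IV. The subunits come from nuclear genes and, apart from complex II, also from the mitochondrial DNA, so the nuclear and mitochondrial products have to be assembled together. In macrophages, inflammatory activation is known to shift metabolism from this pathway towards glycolysis, and complex II and reverse electron flow through complex I are known sources of signalling metabolites and reactive oxygen.

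The libraries held 13447021 to 16602734 counts each. The targeted gene, Ermap, had 12, 12 and 3 counts in the controls and 10, 21 and 14 in the libraries labelled ERMAP shRNA, so these labels are not matched by a lower Ermap count (log2 fold change 0.81 ± 0.52 SE, edgeR adjusted p = 0.929). Every direction below therefore refers to the libraries as labelled. Control library 1 stood apart. Counts from the mitochondrial chromosome made up 3.69% of its total, against 1.71% to 2.18% in the other 5 libraries. The members together took 0.639% of its counts, against 0.684% to 0.746% in the others. Counts and medians are therefore given with and without that library, and so are most fold changes of single genes. Macrophage markers summed to between 6602 and 6899 CPM (counts scaled to library size and TMM factors) in the 6 libraries, although Mrc1, one of the 8, was at or near 0. T cell markers were at 0 in every library, and B cell, erythroid, fibroblast and epithelial markers each summed to under 1 CPM.

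Levels between genes were compared as FPKM (fragments per kilobase of gene, scaled to library size), averaged over the 6 libraries. The members ranged from 16.7 FPKM for Ndufb5, an accessory subunit of complex I, to 424.7 FPKM for Atp5a1, the alpha subunit of the catalytic head of ATP synthase. This is a 25.5-fold range. The order depends on the deposited gene length that FPKM divides by, which was 4995 bases for Ndufb5 and 419 for Ndufa1. In CPM, which does not use length, Ndufb5 had a control mean of 81.6 and Ndufa1 25.7. Likewise Ndufs1 had a control mean of 149.5 CPM and Ndufs8, named below, 123.8 CPM. The median member was at 61.1 FPKM, against 7.29 FPKM for the median tested gene. The highest levels belonged to complex V, where Atp5b, the catalytic beta subunit, followed Atp5a1 at 366.9 FPKM. Next came Cox4i1, a regulatory subunit of complex IV, at 286.3 FPKM and Sdhd, a membrane anchor of complex II, at 217.4 FPKM. The leading genes of complex III and complex I were lower. Uqcrfs1, the Rieske iron-sulfur protein, was at 134.5 FPKM and Ndufs8, an iron-sulfur core subunit of complex I, at 127.0 FPKM. Cycs was at 42.0 FPKM. Some neighbours in this order were not separated by the spread over libraries: Uqcrfs1 (124.7 to 146.3 FPKM) overlapped with Ndufs8 (118.6 to 136.2 FPKM) and with the small accessory subunit Ndufa2 (53.5 to 155.4 FPKM). Atp5a1 (384.9 to 441.9 FPKM) and Atp5b (349.4 to 381.3 FPKM) did not overlap.

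**Figure D1:**
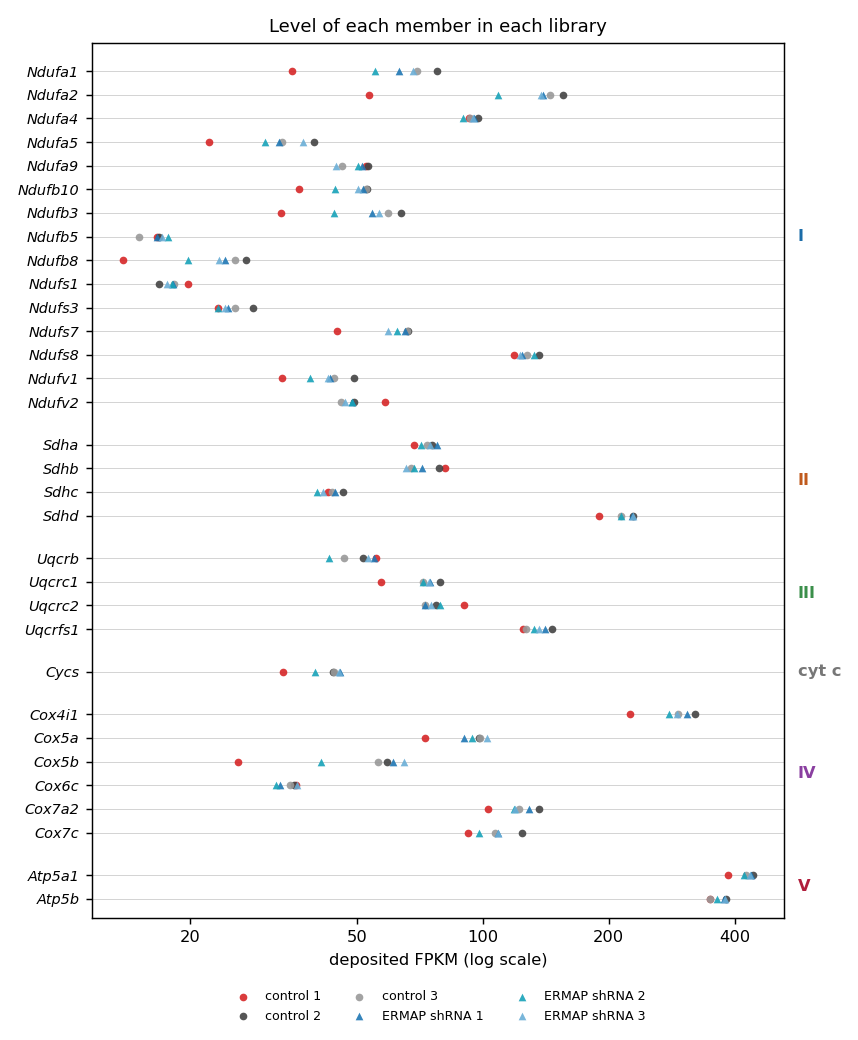
Deposited FPKM of each of the 32 members (rows, grouped by complex) in each of the 6 libraries, on a log scale; circles are controls and triangles are libraries labelled ERMAP shRNA. The members spread from 16.7 FPKM (Ndufb5, mean) to 424.7 FPKM (Atp5a1, mean), and control library 1, in red, sits left of the other points for Ndufa2, Ndufa1 and Cox5b.

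Across all 6 libraries, no member of any complex passed the test between the libraries labelled ERMAP shRNA and the controls. Of the 32 members, edgeR called 0 higher and 0 lower at an adjusted p under 0.05, where it called 1.14% of the 12491 tested genes (126 or 1.01% higher and 17 or 0.136% lower). At an unadjusted p under 0.05 the count of members was also 0, against 3.71% of tested genes higher and 3.04% lower, and DESeq2 called 0. The smallest unadjusted p was 0.187, and the adjusted p of the members ranged from 0.937 to 0.997. In no member were the 3 labelled libraries all above or all below the 3 controls, whereas 14.2% of tested genes had groups that did not overlap. Log2 fold changes were positive for 18 members and negative for 14, from -0.15 for Sdhb to 0.24 for Cox5b. Their median was 0.02, against -0.01 over all tested genes, of which 48.3% were positive. By complex, the median was -0.01 for complex I, -0.02 for complex II, 0.00 for complex III, 0.04 for complex IV and 0.04 for complex V, and the value for Cycs was 0.10.

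The precision of these values can be read from the 95% intervals of the fold changes. For 29 of the 32 members the interval lay within a 1.5-fold change in either direction, which was so for 58.4% of all tested genes. Standard errors on the log2 scale ranged from 0.0834 to 0.348. The 3 members with wider intervals were Ndufa1, Ndufa2 and Cox5b, so their intervals leave room for a change of 1.5-fold. They are also the 3 members that were lowest in control library 1 relative to controls 2 and 3. The intervals do not show which sizes of change would have passed the adjusted p, in these or in the other members.

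**Figure D2:**
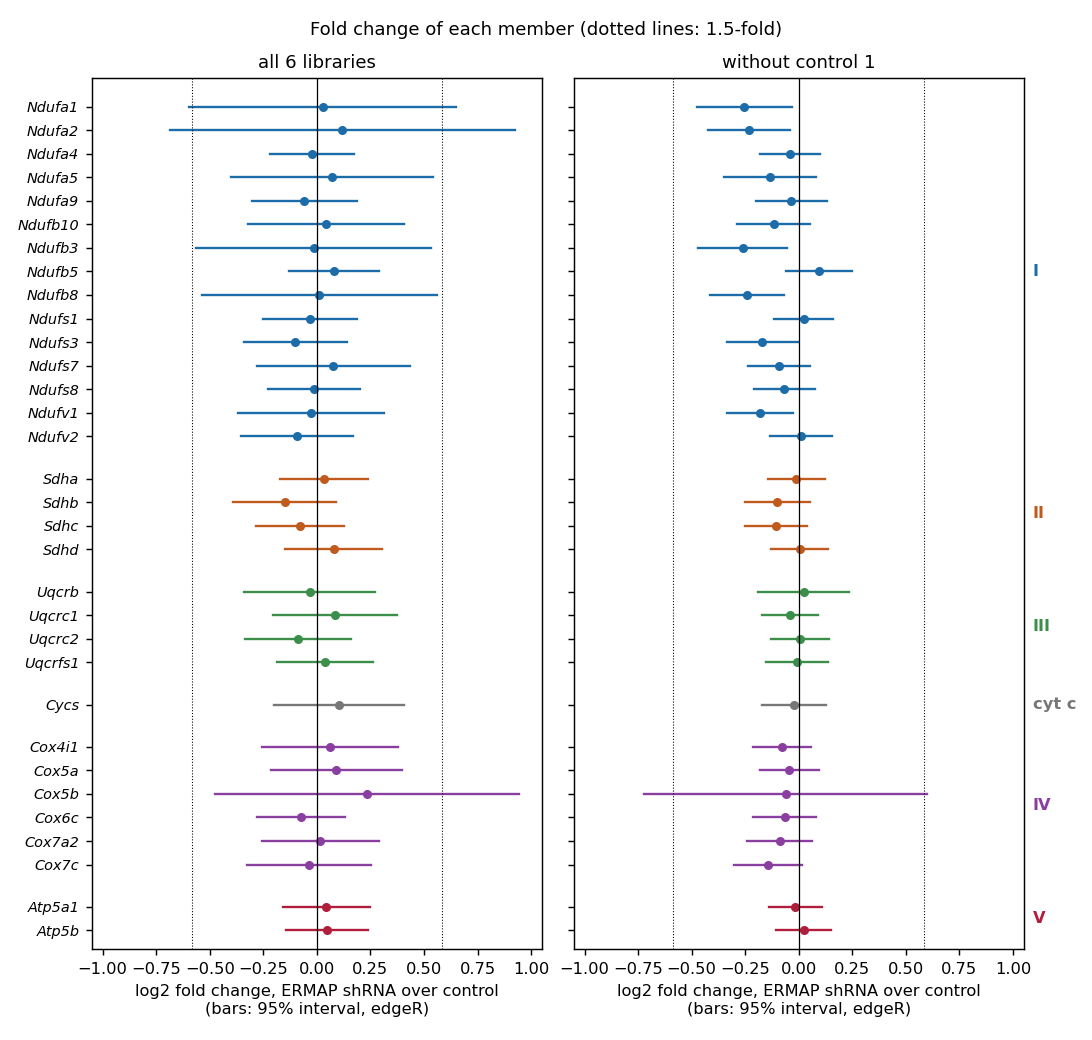
Log2 fold change of the libraries labelled ERMAP shRNA over control for each member, with 95% intervals from edgeR, for all 6 libraries (left) and without control library 1 (right); dotted lines mark 1.5-fold. On the left, 29 of 32 intervals lie between the dotted lines, and on the right the bars are shorter, 31 of 32 lie between the lines, and 12 of the 15 points of complex I lie left of 0.

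Complex I, the NADH dehydrogenase, is represented by 6 core members (Ndufs1, Ndufs3, Ndufs7, Ndufs8, Ndufv1, Ndufv2), most of which bind FMN or iron-sulfur clusters, and by 9 accessory members. Ndufa4 is counted here with the 9, as its name has it, although its protein is now assigned to complex IV. The most abundant member by FPKM, Ndufs8, was even across the libraries. It had 115.7, 132.2 and 123.5 CPM in controls 1 to 3, and 120.9, 128.0 and 118.8 CPM in the labelled libraries. The groups overlapped, with a log2 fold change of -0.01 ± 0.09 (SE), and -0.07 ± 0.07 without control library 1. Ndufa2 had the largest fold change of the complex, 0.12 ± 0.35 (edgeR adjusted p = 0.964). Its values were 31.0, 89.6 and 83.5 CPM in the controls and 80.2, 62.6 and 79.0 CPM in the labelled libraries. Control library 1 was the lowest of the 6, and controls 2 and 3 were the highest, so the sign of the fold change depended on that library: without it the value was -0.23 ± 0.09.

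Without control library 1, complex I lay on the negative side. No member was called (0 of 32, against 4.86% of 12793 tested genes, with 342 or 2.67% higher and 280 or 2.19% lower). At an unadjusted p under 0.05 edgeR had 0 members higher and 6 lower, against 7.81% of tested genes higher and 8.54% lower, and DESeq2 again called 0. All 6 belong to complex I: the core subunits Ndufs3 and Ndufv1 and the accessory subunits Ndufa1, Ndufa2, Ndufb3 and Ndufb8. Their log2 fold changes ranged from -0.26 (Ndufb3) to -0.17 (Ndufs3), and the smallest adjusted p was 0.115 (Ndufb8). In 8 members, all of complex I, the 3 labelled libraries lay below controls 2 and 3, and in 0 members above them. Among all tested genes 32.7% had groups apart in this way, 16.1% below and 16.6% above. The other 2 of these 8 were Ndufb10 and Ndufs7. The median log2 fold change was -0.12 for complex I (-0.08 for the core and -0.13 for the accessory members), -0.06 for complex II, 0.00 for complex III, -0.07 for complex IV and 0.00 for complex V. Over the 32 members it was -0.06, with 7 positive and 25 negative, against -0.01 over all tested genes, of which 48.6% were positive. Over the 106 tested rows of other pathway genes the median was also -0.06, with 35 positive and 71 negative. Among them, other subunits of complexes III, IV and V also had falls at an unadjusted p under 0.05 (edgeR), as given below.

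Ndufb8 and Ndufb3, accessory subunits of the membrane arm, show the pattern in single libraries. They were chosen after their values were seen. Ndufb8 (chromosome 19) had 44.1, 86.2 and 81.0 CPM in controls 1 to 3 and 76.8, 62.3 and 74.1 CPM in the labelled libraries. Ndufb3 (chromosome 1) had 25.5, 49.1 and 45.6 CPM in the controls and 41.9, 33.9 and 43.3 CPM in the labelled libraries. In both genes control library 1 was the lowest, labelled library 2 was the next, and controls 2 and 3 were the highest. With control library 1 left out and offsets for GC content and gene length, edgeR called 0 members higher and 3 lower, against 3.32% of 12778 tested genes higher and 3.19% lower. The 3 were Ndufb8 with a log2 fold change of -0.29 (adjusted p = 0.0181), Ndufb3 with -0.355 (adjusted p = 0.0362) and Ndufa2 with -0.26 (adjusted p = 0.0469). Over the alternatives with that library left out, the adjusted p reached 0.433 for Ndufa2, 0.366 for Ndufb3 and 0.334 for Ndufb8.

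Labelled library 2 was also low in many members. Among the 5 libraries other than control 1, it was the lowest in 21 of 32 members, including 7 of the 9 accessory members of complex I, and it was the lowest in 25.1% of all tested genes. Control library 2 was the highest of these 5 libraries in 23 of 32 members. The share of all tested genes in which it was the highest was not counted. It was the lowest in 1 member and in 24.2% of all tested genes. With both control library 1 and labelled library 2 left out, which was chosen after the data had been seen, edgeR called 0 members, against 5.18% of 12652 tested genes. At an unadjusted p under 0.05 it had 0 members higher and 1 lower (Ndufb8, log2 fold change -0.155 ± 0.074 SE, edgeR adjusted p = 0.307), against 7.35% and 7.87% of tested genes. The median was then -0.04 for the members and -0.09 for complex I, and the 95% interval was within 1.5-fold for 32 of 32.

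**Figure D3:**
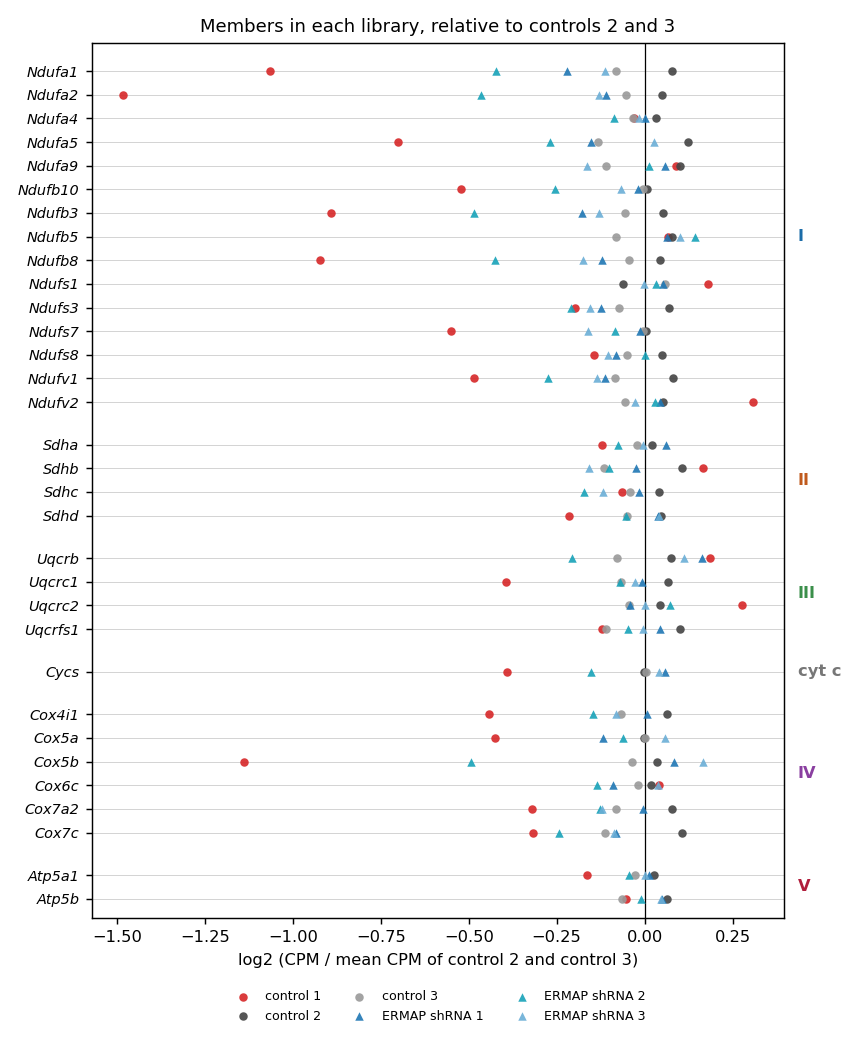
CPM of each member in each library, as log2 of its ratio to the mean of controls 2 and 3; circles are controls and triangles are libraries labelled ERMAP shRNA. The red points of control library 1 run from -1.48 (Ndufa2) to 0.31 (Ndufv2), and labelled library 2 is the lowest of the remaining 5 in 21 members.

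Complex II, succinate dehydrogenase, is the only complex made of nuclear products alone, and its 4 genes were all members. Its catalytic subunit Sdha binds FAD, Sdhb carries the iron-sulfur clusters, and Sdhc and Sdhd anchor the enzyme in the membrane. Sdhb had the lowest fold change of all members. Its values were 184.8, 177.5 and 152.2 CPM in the controls and 162.2, 153.8 and 147.8 CPM in the labelled libraries, which overlapped (log2 fold change -0.15 ± 0.10, edgeR adjusted p = 0.937, and -0.10 ± 0.07 without control library 1). Sdhd, the most abundant by FPKM, had 236.8, 284.2 and 265.7 CPM in the controls and 282.4, 265.3 and 283.1 CPM in the labelled libraries. Control library 1 was again the lowest for Sdhd, and it was the highest for Sdhb. Sdha, Sdhc and Sdhd had log2 fold changes of 0.03, -0.08 and 0.08 in all 6 libraries. Without control library 1 the values were -0.01, -0.11 and 0.00, so the sign for Sdha turned.

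Nuclear control of these genes is known to run in part through the factors NRF1, GABP (an ETS family factor) and YY1. Of the members, 24 are in the RefSeq table of promoters (GRCm38.p6, 250 bases before to 50 after the start), and the letters of 3 motifs were searched on both strands. The NRF1 motif, GCGC and TGCGC with any 1 base between them, was in 4 of the 24 (16.7%: Ndufa5, Sdha, Sdhd and Uqcrc1) and in 5.19% of 27025 genes. CCGGAAG, for ETS factors, was in 4 (16.7%: Ndufs3, Ndufs8, Sdhb and Sdhd) and in 9.93% of genes. AAGATGGC, for YY1, was in 3 (12.5%: Ndufa9, Ndufb8 and Ndufs7) and in 3.19% of genes. The stretches below, from before the start of Sdha and Sdhd, show members of 1 enzyme with NRF1 matches; they were chosen after the matches were seen. Capitals mark the matches, and both are written 5′ to 3′ on the minus strand, at chr13:74350281-74350360 and chr9:50603850-50603969.
Sdha: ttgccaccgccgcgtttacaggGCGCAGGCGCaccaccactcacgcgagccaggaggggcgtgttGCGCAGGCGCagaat
Sdhd: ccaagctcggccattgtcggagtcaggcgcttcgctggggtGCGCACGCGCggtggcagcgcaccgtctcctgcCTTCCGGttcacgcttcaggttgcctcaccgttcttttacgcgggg
All matches shown lie on the strand opposite to the one printed, so the capitals are the reverse complement of the letters searched. In Sdha they begin 98 and 55 bases before the RefSeq start, with another at 10 that is not shown. In Sdhd the NRF1 match begins at 79 and the ETS match at 46. The RefSeq starts differ from those of the deposited genes, at 74350280 for Sdha and 50603812 for Sdhd. The match at 10 thus lies inside the deposited Sdha gene. Only 1 of the windows had its first 50 bases after the RefSeq start in the gene's longest GENCODE vM21 transcript. A match is a string of letters and was not tested as a binding site.

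Complex III passes electrons from ubiquinol to cytochrome c. Its most abundant member by FPKM, Uqcrfs1, had 172.3, 201.0 and 173.8 CPM in the controls. In the labelled libraries it had 193.3, 181.2 and 186.8 CPM, with a log2 fold change of 0.04 ± 0.10 (-0.01 ± 0.07 without control library 1). Uqcrc2, a core subunit of the matrix side, had the largest fold change of the 4, -0.09 ± 0.11. Its control values were 233.6, 198.7 and 186.8 CPM and its labelled values 187.2, 202.6 and 192.8 CPM, with control library 1 the highest of all. Leaving that library out moved the value of Uqcrc2 to 0.00 ± 0.07. Uqcrc1, the other core subunit, and Uqcrb, a small subunit, had values of 0.09 and -0.03, which turned to -0.04 and 0.02 without that library. Cycs had 114.9, 150.4 and 151.0 CPM in the controls and 156.8, 135.5 and 154.9 CPM in the labelled libraries. Its log2 fold change was 0.10 ± 0.13, and -0.02 ± 0.07 without control library 1, the lowest of the 6.

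Complex IV, cytochrome c oxidase, reduces oxygen. Its nuclear subunits surround a core that is encoded by the mitochondrial DNA. Cox4i1 had 353.0, 501.7 and 457.9 CPM in the controls and 482.5, 433.6 and 453.6 CPM in the labelled libraries. Control library 1 was the lowest, and the rest overlapped (log2 fold change 0.06 ± 0.14, and -0.08 ± 0.07 without that library). Cox5b, which binds zinc on the matrix side, had 41.8, 94.4 and 89.9 CPM in the controls and 97.7, 65.5 and 103.5 CPM in the labelled libraries. Both control library 1 and labelled library 2 were low, and the fold change of 0.24 ± 0.31 turned to -0.06 ± 0.23 without control library 1. Its interval, -0.72 to 0.60, then still crossed 1.5-fold, as the only one of the 32. Cox5a, Cox6c, Cox7a2 and Cox7c had fold changes between -0.07 and 0.09. Without control library 1 all 6 members of complex IV were negative, from -0.14 to -0.04, with unadjusted p of 0.0765 or more.

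In complex V, the ATP synthase, Atp5a1 had 1222, 1397 and 1345 CPM in the controls and 1382, 1330 and 1372 CPM in the labelled libraries. Atp5b had 1504, 1629 and 1490 CPM in the controls and 1613, 1549 and 1611 CPM in the labelled libraries. The groups overlapped in both genes, with log2 fold changes of 0.04 ± 0.09 and 0.05 ± 0.08, and of -0.02 ± 0.06 and 0.02 ± 0.06 without control library 1. Atp5b was 1 of 6 members for which control library 1 lay inside the range of the other 5.

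Control library 1 was below all 5 other libraries in 20 of the 32 members (62.5%) and above them all in 6 (18.8%: Ndufs1, Ndufv2, Sdhb, Uqcrb, Uqcrc2 and Cox6c). Among 10753 tested protein-coding genes the shares were 38.4% below and 36.1% above. Relative to the mean of controls 2 and 3, the log2 difference was -1.48 for Ndufa2, -1.14 for Cox5b, -1.06 for Ndufa1, -0.92 for Ndufb8 and -0.89 for Ndufb3, and the highest was 0.31 for Ndufv2. The complexes were not equally low: the median was -0.70 for the accessory and -0.17 for the core members of complex I, -0.37 for complex IV, -0.11 for complex V, -0.09 for complex II and 0.03 for complex III. These differences between complexes were not tested. The mitochondrially encoded subunits went the other way, with 12 of 12 tested above all other libraries and a median of 1.36. Over 3 control libraries the median SD of the members' log2 CPM was 0.176, and without control library 1 it was 0.0761, next to 0.0755 for the labelled libraries.

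Length and base composition moved with these differences. Across the 32 members the log2 difference of control library 1 had a Spearman correlation of 0.43 with gene length and -0.33 with GC content; over the tested protein-coding genes the values were 0.29 and -0.77. These describe genes within a few libraries, and genes are not independent replicates. Of the members shorter than 1500 bases, 10 of 12 were below all other libraries in control library 1, and of the longer members 10 of 20. Among protein-coding genes 56.6% of the shorter and 37.1% of the longer were. The part of length, base composition or the mitochondrial share in the members' values was not tested.

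**Figure D4:**
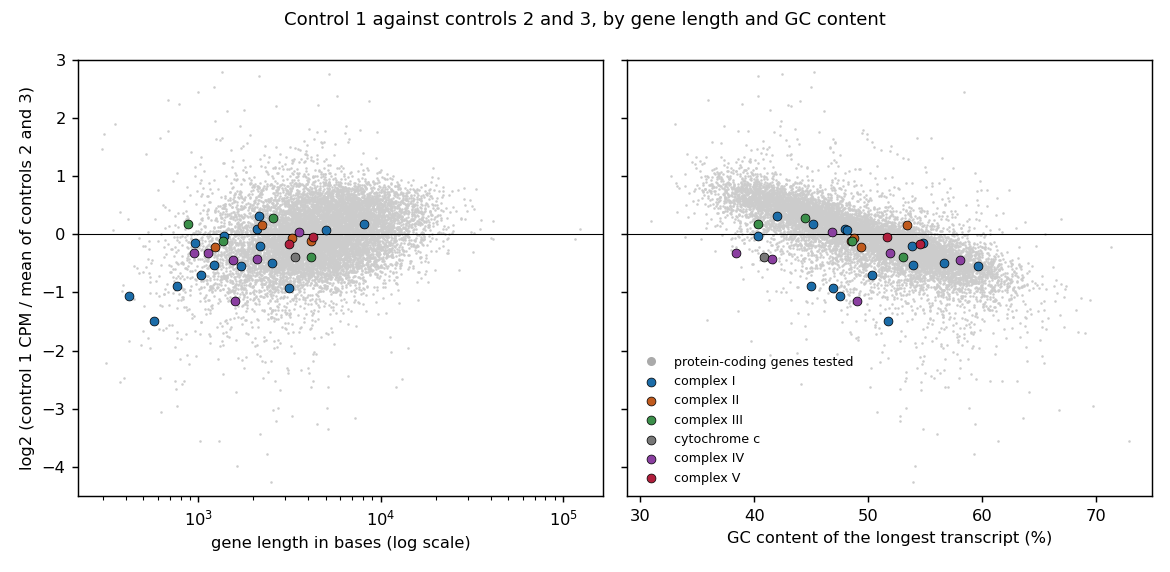
Log2 ratio of control library 1 to the mean of controls 2 and 3, against gene length (left, log scale) and against GC content of the longest transcript (right), for the members (coloured by complex) and tested protein-coding genes (grey). The short members Ndufa2 and Ndufa1 lie at -1.48 and -1.06, and the grey cloud slopes down with GC content.

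The rest of the pathway was read from lists of other subunits, assembly factors and transcriptional regulators, 111 genes that stand in 112 rows of the table. Of 105 rows tested in all 6 libraries, edgeR called 0, against 1.14% of all tested genes, and DESeq2 also called 0. At an unadjusted p under 0.05 edgeR had 4 rows higher and 0 lower, against 3.71% and 3.04% of tested genes. Without control library 1 it had 9 higher and 13 lower of 106, against 7.81% and 8.54%. The lower rows were 3 of 23 other subunits of complex I, 2 of 5 of complex III and 1 of 8 of complex IV. The rest were 4 of 16 of complex V with its inhibitor and 3 of 42 assembly factors. Higher were 0, 0, 1 and 1 of these subunits, 5 assembly factors and 2 regulators. For complexes I, III, IV and V the median log2 fold changes of these other subunits were -0.10, -0.09, -0.05 and -0.07. In that fit edgeR called 0 of the 106 rows higher and 1 lower, against 2.67% and 2.19% of all tested genes. The 1 was Uqcc3, an assembly factor for complex III. Uqcc3 had 10.4, 21.0 and 18.8 CPM in the controls and 14.2, 12.2 and 16.9 CPM in the labelled libraries. With control library 1, the lowest, left out, the log2 fold change was -0.47 ± 0.13 (edgeR adjusted p = 0.0439), and over the alternatives without that library the adjusted p ran from 0.0107 to 0.207. The most abundant genes of the lists by FPKM are given with control library 1 and, second, without it. Uqcr10, a small subunit of complex III, had log2 fold changes of 0.14 and -0.09, and Cox8a, of complex IV, 0.01 and -0.21. Usmg5, a small subunit of complex V, was at 0.08 and 0.09, and Yy1, a transcription factor, at 0.06 and 0.08. Uqcc2, an assembly factor for complex III, was at -0.09 and -0.31. edgeR called none of these 5 in either fit, but with control library 1 left out and no filter on low counts it called Uqcc2 lower (-0.31, adjusted p = 0.0175). Of 13 regulators 12 were tested and 0 called, and Ppargc1a, the coactivator PGC-1 alpha, had 0 counts in all 6 libraries. The 12 tested mitochondrially encoded subunits had a median of -0.46 with control library 1 and 0.08 without it, and 0 were called.

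Some members share sequence with other genes, so reads may have been split. Cycs shares 946 bases at 99.9% identity with Gm10053, which had 1132 counts against 12908 for Cycs. Cox5b shares 390 bases at 99.2% identity with Gm11273, which had 668 counts against 7381. Copies of Uqcrb and Ndufs3 held 6.69% and 4.52% of their counts. Exons of several members overlap those of genes on the other strand, and whether reads were counted by strand is not known here. The shared part of exon bases was 19.7% for Uqcrc2 (Pdzd9), 12.8% for Cox5a (Gm26631) and 12.3% for Ndufb5 (Mrpl47). It was 11.5% for Ndufa2 (Tmco6) and 9.94% for Cox4i1 (Emc8), and smaller for Atp5a1, Cox6c, Ndufa9, Ndufs1, Ndufs3 and Uqcrb. Ndufb8 shares 134 bases (4.26%) with Gm20538 on the same strand. The levels of these genes are uncertain to that extent.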

How the data were processed

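RNA was sequenced in 6 libraries of RAW264.7, in 2 labelled groups of 3. The submitters' processing notes name HISAT2 and the mm10 build, without versions. How reads were counted, and whether by strand, is not given in the sources used here. Raw read counts and FPKM values were deposited by the authors; each FPKM is a count over gene length, scaled by 1 factor per library. Column names give the group and a number that ties to no single sample.

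The main test was edgeR 4.0.16's quasi-likelihood test on the counts (limma 3.58.1, R 4.3.3), with robust dispersion, TMM factors and filterByExpr (minimum count 10). Adjustment was by Benjamini-Hochberg over all genes tested, and an adjusted p under 0.05 was a call. Fold changes are log2, labelled libraries over controls. Their SE was computed as the absolute fold change over the square root of the F statistic of that test. The 95% intervals use that SE and a t quantile. The edgeR script was also run on simulated data with known changes, and the outcome is not reported here. GC content comes from GENCODE vM21 transcripts. Copies are genes with at least 95% identity over at least 150 bases, found with blastn.

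The members and lists were chosen with earlier results of these data known. Values by library are given, per complex, for the member with the highest mean FPKM and the one with the largest fold change, for Cycs, and for called genes; of the other pathway lists, for called genes, with the fold change of the most abundant of each, 1 of which is not reported here. Alternatives were DESeq2 1.42.0 and its size factors, upper-quartile factors, limma-voom without and with library weights, other filters on low counts, offsets for GC content and length (mgcv 1.9.3), FPKM in limma-trend with a pseudocount of 1 or 0.1, a block for the column number, and fits without each library in turn. No pair of libraries agreed within sampling noise.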

Additional observations from a re-analysis of the deposited data

How the results depend on the processing

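No alternative fitted to all 6 libraries called any of the 32 members, nor did the main test with each library left out in turn. Of the other settings tried with control library 1 left out, offsets for GC content and length called 3 members lower in place of 0, and the rest called 0. For all tested genes the counts moved from 126 higher and 17 lower to 202 and 71 with DESeq2, 487 and 430 with library weights, and 256 and 174 with GC and length offsets; without a filter on low counts 32 were lower, and with log2(FPKM + 0.1) 9 were lower. Leaving out each library in turn gave 73 to 342 higher and 3 to 280 lower, with the highest counts without control library 1. The median log2 fold change then ran from -0.0634 to 0.0994 for the members, from -0.117 to 0.104 for complex I and from -0.0723 to 0.131 for complex IV, lowest without control library 1 and highest without control library 2. That of complex V was -0.0235 with GC and length offsets. Of the other pathway genes, 3 were called higher with library weights (Tfam, Atp5g1 and Cox4i2), and 0 to 1 were called lower when each library was left out. The library weights gave control library 1 a weight of 0.0903, against 0.772 to 3.26 for the others. Cox4i2 had only 1 to 19 counts per library. With control library 1 left out and no filter on low counts, 1 of 108 rows was higher (Ndufaf4) and 3 were lower (Uqcc2, Uqcc3 and Cox14). The share of all genes called in that setting is not given here. With that library left out and GC and length offsets, 0 of 106 rows were higher and 4 lower (Uqcc3, Atp5e, Ndufb11 and Cox14). The shares of all tested genes were then 3.32% higher and 3.19% lower. Without control library 1 and labelled library 2, chosen after seeing the data, 360 genes were higher and 296 lower, 1 other pathway gene was higher (Atp5g1), and complex I had a median of -0.0916. The column numbers did not pair the libraries: deviations of same-numbered libraries had correlations of -0.13, -0.278 and 0.178. With the number as a replicate block, 81 genes were called higher and 3 lower, and 0 members either way. The causes of these shifts were not tested. Of 324 values of 18 named genes under 18 alternatives, 33 had the other sign and 1 (Uqcc3) an adjusted p under 0.05.

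The main limits are 3 libraries a group, 1 of which stands apart among the controls, no control virus in the labels, and too few Ermap counts to check the knockdown. The 95% intervals leave room for changes under 1.5-fold in most members, and for larger ones in Ndufa1, Ndufa2 and Cox5b.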
